A study of Homo sapiens with 2 samples.

Results

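The WSTF summits on chromosome 17 numbered 227 of the 2697 in the deposited list for SW620, an established human line of metastatic colorectal cancer cells. They were chosen by position, as all summits whose chromosome column read 17, out of peaks that the caller had selected on their signal. Their number and their presence on the chromosome are therefore given by the selection and are not results. A summit is the base of highest signal in a ChIP-seq peak, here from chromatin precipitated with an antibody against WSTF. The series holds 2 samples of SW620 cells, titled with and without the suffix IP, and no label states which of them gave the list. No treatment, dose or time is given in the labels. The series title names WSTF knockdown and the design text names WSTF overexpression, so the WSTF level of these cells is not known here. The design text mentions biological replicates, but a single list was analysed and the sequencing depth is unknown. Counts and shares are therefore descriptions of this list, with exact Clopper-Pearson 95% intervals that cover counting error only.

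WSTF, encoded by BAZ1B, is a bromodomain protein that joins the ATPase SMARCA5 in the WICH chromatin remodelling complex, which slides nucleosomes and has been tied to replication, transcription and the DNA damage response. Remodellers of the ISWI family act at nucleosomes beside transcription start sites as well as in replicating chromatin. Chromosome 17 is rich in genes. It carries housekeeping genes as well as families expressed in few tissues, such as the type I keratins, muscle myosins, chemokines and HOXB genes.

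Sequences were available only for annotated promoter windows, so the summit at 7351860 (score 10.7), which lay outside them, is not shown. The windows with the strongest summits inside were GC-rich. Of the chromosome 17 summits that lay inside an annotated promoter window, the 6 with the highest scores are shown, followed by the promoter of KRT20, an intestinal keratin gene without a summit, for contrast. Each runs 5′ to 3′ on the gene's strand over the 250 bases before an annotated start of transcription and the first 30 transcribed bases, from RefSeq on GRCh38.p14, and capitals mark the 21 bases centred on the summit.
CAMKK1: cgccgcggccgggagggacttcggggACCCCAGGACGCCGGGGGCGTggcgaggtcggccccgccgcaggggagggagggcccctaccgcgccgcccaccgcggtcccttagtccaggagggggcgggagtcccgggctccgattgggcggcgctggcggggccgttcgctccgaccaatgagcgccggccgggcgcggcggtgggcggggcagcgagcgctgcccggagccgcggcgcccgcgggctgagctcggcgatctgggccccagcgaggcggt
ASPSCR1: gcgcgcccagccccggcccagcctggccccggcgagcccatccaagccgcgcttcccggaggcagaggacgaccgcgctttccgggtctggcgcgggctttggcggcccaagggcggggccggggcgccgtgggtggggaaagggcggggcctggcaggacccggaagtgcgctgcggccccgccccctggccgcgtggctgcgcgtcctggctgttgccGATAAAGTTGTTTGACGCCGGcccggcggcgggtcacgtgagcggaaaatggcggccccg
SLC16A3: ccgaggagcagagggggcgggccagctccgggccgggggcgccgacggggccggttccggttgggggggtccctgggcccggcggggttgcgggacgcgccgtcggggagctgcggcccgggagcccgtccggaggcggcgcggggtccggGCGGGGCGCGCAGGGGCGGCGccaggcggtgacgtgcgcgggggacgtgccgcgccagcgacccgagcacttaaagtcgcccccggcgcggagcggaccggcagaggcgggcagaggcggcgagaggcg
ANAPC11: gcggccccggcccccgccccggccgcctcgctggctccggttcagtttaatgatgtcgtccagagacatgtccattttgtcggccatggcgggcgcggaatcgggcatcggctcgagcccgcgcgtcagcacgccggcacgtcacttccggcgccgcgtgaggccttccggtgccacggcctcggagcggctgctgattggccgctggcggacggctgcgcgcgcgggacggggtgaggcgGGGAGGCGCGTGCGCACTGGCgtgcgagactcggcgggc
ZNF232: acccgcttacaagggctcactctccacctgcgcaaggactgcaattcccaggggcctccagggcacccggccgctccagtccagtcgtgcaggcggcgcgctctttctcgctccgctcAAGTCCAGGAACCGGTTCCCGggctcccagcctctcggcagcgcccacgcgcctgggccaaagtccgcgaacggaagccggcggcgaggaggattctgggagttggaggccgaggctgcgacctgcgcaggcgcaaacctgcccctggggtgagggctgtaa
CYB561: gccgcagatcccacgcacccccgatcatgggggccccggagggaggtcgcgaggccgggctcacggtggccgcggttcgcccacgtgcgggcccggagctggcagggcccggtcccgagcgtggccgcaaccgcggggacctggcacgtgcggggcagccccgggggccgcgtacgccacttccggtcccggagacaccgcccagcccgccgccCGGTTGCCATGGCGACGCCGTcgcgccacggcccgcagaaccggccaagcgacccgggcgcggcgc
KRT20: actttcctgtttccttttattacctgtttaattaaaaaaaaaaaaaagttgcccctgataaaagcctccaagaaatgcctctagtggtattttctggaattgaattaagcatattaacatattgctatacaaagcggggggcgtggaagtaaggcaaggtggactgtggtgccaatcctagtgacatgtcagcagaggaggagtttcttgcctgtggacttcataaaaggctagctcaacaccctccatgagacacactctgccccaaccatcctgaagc

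The windows lie at chr17:3893024-3893303 (minus strand) for CAMKK1, chr17:81977379-81977658 (plus) for ASPSCR1, chr17:82228792-82229071 (plus) for SLC16A3 and chr17:81891473-81891752 (plus) for ANAPC11. That of ZNF232 is chr17:5111849-5112128 (minus), that of CYB561 chr17:63446277-63446556 (minus) and that of KRT20 chr17:40885213-40885492 (minus). Their GC content ran from 68.9% at ZNF232 to 82.9% at SLC16A3, with 81.4% at CAMKK1, 76.8% at ASPSCR1 and 74.3% at ANAPC11. At KRT20 it was 42.9%. KRT20 was not typical of promoters without a summit. The 300-base windows without a summit on chromosome 17 had a median of 61.0% (lower quartile 53.0%) and 17 CG dinucleotides. The 6 windows with a summit held between 26 (ZNF232) and 48 (SLC16A3) CG dinucleotides, and the KRT20 window held 2. The letters GGGCGG or their reverse complement, the GC box bound by SP and KLF factors, occurred in 5 of the 6 windows and in neither orientation at ZNF232 or KRT20.

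All 6 were among the 10 highest summits of the chromosome. The CAMKK1 summit at position 3893267 (hg38), 214 bp before the start, had the highest score on chromosome 17, 10.9, on the −log10 q scale of the peak caller. CAMKK1 encodes a calcium/calmodulin-dependent protein kinase kinase. Next came the summit at 7351860, with a score of 10.7, 302 bp from KCTD11, which encodes an adaptor of a cullin ubiquitin ligase. The ASPSCR1 summit (10.6) lay 20 bp before the start of the gene for TUG, a regulator of glucose transporter traffic. The SLC16A3 summit at 82228953 (9.87) lay 89 bp before an internal start of the gene for the lactate exporter MCT4. At 81891724 (9.84) the summit lay 1 bp past an annotated start of ANAPC11, a subunit gene of the anaphase-promoting complex, and 137 bp from the outer end of ALYREF, a gene for an mRNA export factor. The ZNF232 summit (9.13) lay 122 bp before an annotated internal start of this zinc finger gene and 65 bp from the lncRNA ZNF232-AS1. The CYB561 summit (9.06) lay 26 bp before an annotated start of the gene for a transmembrane ascorbate-dependent cytochrome.

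Most summits of chromosome 17 lay close to an end of a gene. Within 1 kb of either end of an annotated gene lay 185 of 227 (81.5%, 75.8 to 86.3), against 80.5% of the whole list. Within 1 kb of an end of a protein-coding gene lay 163 (71.8%, 65.5 to 77.6), against 73.2% of the whole list. A further 33 lay inside protein-coding genes away from their ends, 8 lay between genes and 1 lay inside a non-coding gene. The scores had a median of 3.72 on chromosome 17 (quartiles 2.81 to 5.06) and 3.72 on the other chromosomes (2.76 to 5.04). The range was narrower. Scores ran from 1.51 to 10.9 on chromosome 17 and from 1.31 to 5479 elsewhere, and 4 of the 42 summits of the list that reached 10 were here. The lowest scores were 1.51, 509 bp from the predicted gene LOC124904075 inside RPTOR, 1.54 at TMEM102 and 1.54 at RHBDF2.

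Where strand was known, the summits gathered around starts of transcription. A table of annotated starts covered 824 of the 1169 protein-coding genes of the chromosome, and with non-coding genes it gave 1639 starts. Within 1 kb of such a start lay 150 of the 227 summits (66.1%, 59.5 to 72.2). They were centred on it, with a median offset of -5 bp and quartiles of -157.5 bp and 98.5 bp, where negative values are upstream, and 77 lay upstream against 73 at or past the start. The 66.1% has no whole-list share beside it here. Strand was known for 670 protein-coding genes that span 5 kb or more. Of these, 131 (19.6%, 16.6 to 22.8) carried one within 1 kb of the outer 5′ end and 11 (1.64%, 0.82 to 2.92) within 1 kb of the 3′ end. Of these 11 genes, 4 (PITPNA, INCA1, DHRS13 and LRRC45) also had a summit at the 5′ end. The others include genes whose 3′ end adjoins a neighbour with the same summit, such as SENP3 before EIF4A1, MLLT6 before CISD3 and CCDC40 before GAA.

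**Figure D1:**
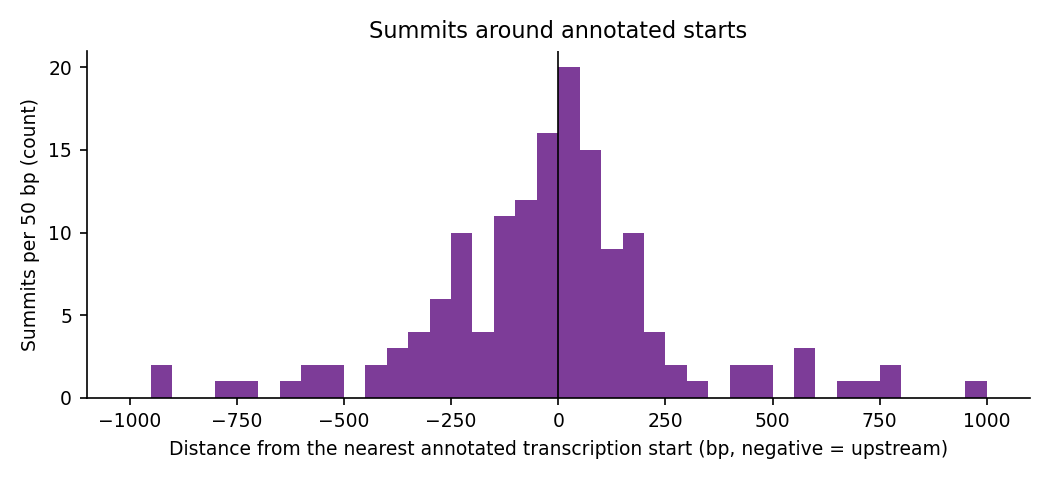
Distance in bp (x axis, negative values upstream) from each chromosome 17 summit to the nearest annotated start of transcription, for the 150 summits within 1 kb of one; the y axis counts summits in bins of 50 bp. The summits pile up around 0, with a median offset of -5 bp.

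Several summits counted as gene body lay at annotated starts of shorter transcripts. Of the 33 inside protein-coding genes, 10 (30.3%, 15.6 to 48.7) were within 1 kb of an annotated internal start, at NDEL1, FAM83G, ACACA, ARHGAP23 (2 summits), CDK5RAP3, MTMR4, C17orf58, PRKAR1A and SLC16A3. No share for the other chromosomes stands beside this count. The summits farthest from any gene end include examples. The summit at 68512159 (score 2.66) was 22957 bp from the nearest end and 159 bp past a start of PRKAR1A, the regulatory subunit gene of protein kinase A. That at 8435758 (3.50) was 22627 bp from an end and 126 bp before a start of NDEL1, a dynein regulator gene, and that at 37359052 (5.19) was 16933 bp from an end and 44 bp past a start of ACACA, the gene for acetyl-CoA carboxylase. The remaining pair among the 5 farthest, in BAIAP2 at 81094980 (2.31) and in NTN1 at 9021278 (3.76), lay at offsets of -2631 bp and 55431 bp from the nearest start in the table, which does not cover every gene.

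Along the chromosome the summits were concentrated at both ends. A gene was counted as having an end summit when one lay within 1 kb of its outer start or end. This held for 204 of 1169 protein-coding genes (17.5%, 15.3 to 19.8), against 11.6% of the 19974 protein-coding genes on chromosomes 1 to 22 and X and 11.3% of those off chromosome 17. By this share chromosome 17 (17.45%) ranked 4 among the chromosomes, below chromosomes 20 (23.8%), 16 (19.4%) and 11 (17.52%). The short arm, taken as everything before 25 Mb, held 78 summits (34.4%, 28.2 to 40.9) and 344 genes, of which 76 had a summit (22.1%, 17.8 to 26.9). The long arm held 149 summits and 825 genes, of which 128 had one (15.5%, 13.1 to 18.2). In neither arm were they spread evenly. The first 10 Mb held 66 of the 78 summits of the short arm, and the last 8.24 Mb, from 75 Mb on, held 71 of the 149 of the long arm. The 65 Mb between them held 90 summits at 1.38 per Mb, and 79 of its 758 genes had one (10.4%, 8.34 to 12.8), a share close to that of the whole genome.

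By 5 Mb stretch, the count ran from 1 summit (10 to 15 Mb and 20 to 25 Mb) to 45 (80 Mb to the end of the last gene at 83.2 Mb). The last stretch is also the shortest, and its density was 13.9 summits per Mb, against 7.40 at 0 to 5 Mb, 5.8 at 5 to 10 Mb and 5.20 at 75 to 80 Mb. Gene number did not order the stretches in the same way. The stretch from 40 to 45 Mb had the most genes, 182, but 6 summits and 7 genes with a summit (3.85%, 1.56 to 7.76). The share of genes with a summit was 48.7% (37.2 to 60.3) from 80 Mb on, 30.7% (22.4 to 40.03) at 0 to 5 Mb, 26.0% (14.6 to 40.3) at 60 to 65 Mb, 24.0% (16.9 to 32.3) at 5 to 10 Mb and 23.3% (15.1 to 33.4) at 75 to 80 Mb. The intervals of the last 4 of these overlap, and those of 0 to 5 Mb and 60 to 65 Mb also overlap the interval from 80 Mb on. The stretches were singled out with their counts known, so these shares carry no test.

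**Figure D2:**
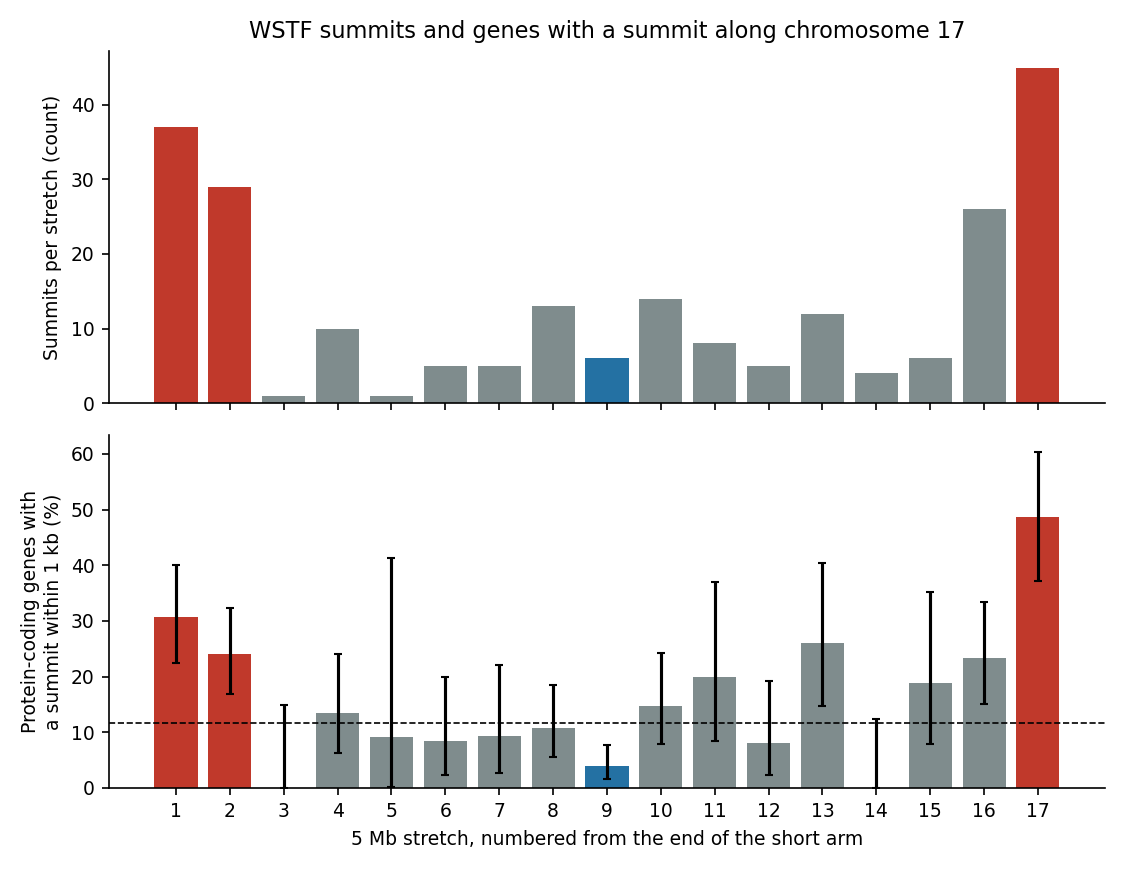
Summits per 5 Mb stretch (upper panel, count) and percent of protein-coding genes with an end summit (lower panel, bars with exact 95% intervals), with stretches numbered from the end of the short arm and the last one 3.24 Mb long. Red marks 0 to 10 Mb and 80 Mb to the telomere, blue the keratin stretch from 40 to 45 Mb, and the dashed line the 11.6% of genes genome-wide; stretch 17 stands highest at 48.7% and stretch 9 is at 3.85%.

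The ends of other chromosomes were measured in the same way, with 5 Mb taken from each side. On chromosome 17, 78 of 209 genes in these end stretches had a summit (37.3%, 30.7 to 44.3), against 126 of 960 (13.1%, 11.1 to 15.4) further in. On the other chromosomes the shares were 15.6% (14.2 to 17.1) of 2461 genes at the ends and 10.6% (10.1 to 11.1) of 16344 further in. Among the 37 chromosome ends with at least 20 genes, the last 5 Mb of chromosome 17 (45.3%, 35.02 to 55.8, 95 genes) ranked 2, below the end of chromosome 7 (47.6%, 25.7 to 70.2, 21 genes), whose interval contains it. The first 5 Mb ranked 5. The end of chromosome 13 (38.1%, 23.6 to 54.4) and that of chromosome 20 (31.4%, 20.9 to 43.6) lay between, and their intervals overlap that of the end of chromosome 17.

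**Figure D3:**
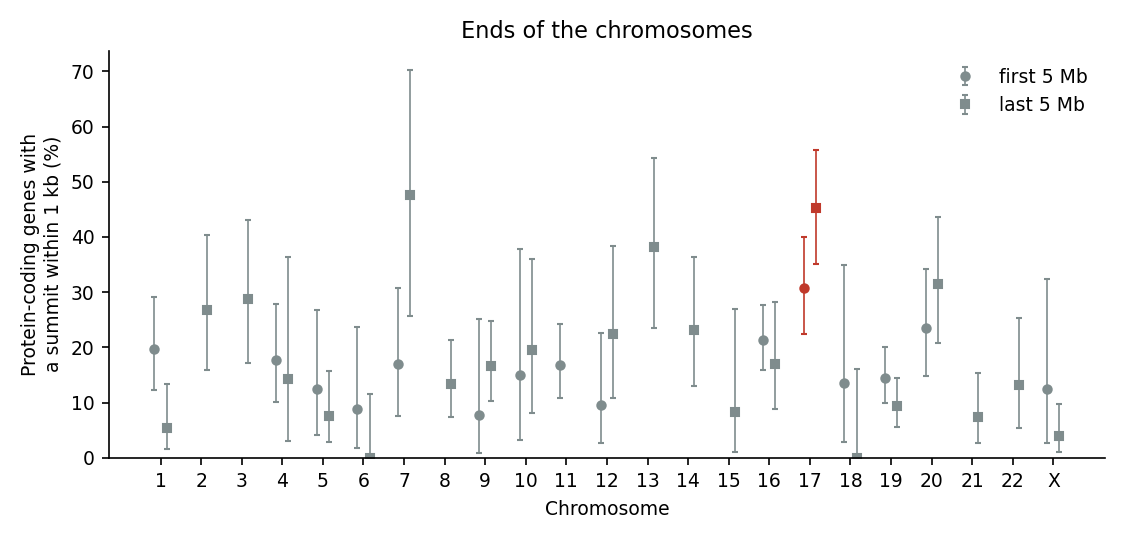
Percent of protein-coding genes with an end summit, within 1 kb (y axis), in the first 5 Mb (circles) and last 5 Mb (squares) of each chromosome (x axis), for ends with at least 20 genes; bars are exact 95% intervals. Chromosome 17 is in red, with 30.7% in its first and 45.3% in its last 5 Mb.

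From 80 Mb to the telomere, 38 of 78 protein-coding genes had an end summit and 40 did not. The stretch also held most of the strong summits: 9 of the 14 on the chromosome that scored at least 8, and 11 of the 20 highest. Its median score was 4.04 against 3.72 for the chromosome. Roles were assigned only to genes with an end summit, so the counts by role, here and in the next paragraph, carry no share. Taking for each gene its highest summit, 4 genes of membrane traffic scored from 8.24 to 10.6. They were ASPSCR1, HGS, an ESCRT-0 subunit gene that sorts ubiquitinated cargo into endosomes (8.24, shared with ARL16), and WDR45B, an autophagy gene (8.39).

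Metabolic and transport genes there were 7: SLC16A3 (9.87), SLC38A10 (7.04), an amino acid transporter family gene, FASN (6.63), the fatty acid synthase gene, HEXD (6.34), a hexosaminidase gene, GAA (4.85), the lysosomal glucosidase gene, SLC25A10 (2.52), the mitochondrial dicarboxylate carrier gene, and FN3KRP (2.03), a ketosamine kinase gene. The 4 genes of the actin cytoskeleton were FSCN2 (10.0), which encodes an actin-bundling fascin, ARHGDIA (7.15), a GDP dissociation inhibitor of small GTPases, BAIAP2 (4.15), an adaptor of membrane ruffles, and ACTG1 (3.24), cytoplasmic gamma-actin. Cell division and centrosome genes were 5: ANAPC11 (9.84), CCDC40 (4.85), which acts in cilia, CENPX (3.58) and LRRC45 (3.58), which share a summit, and CCDC57 (3.405). In gene expression, ALYREF shared the 9.84 summit with ANAPC11, the forkhead factor gene FOXK2 had 4.85, the mitochondrial ribosomal gene MRPL12 had 3.76 and ENDOV, an inosine-specific nuclease gene, had 2.36. Protein quality control was represented by NPLOC4 (6.26), a cofactor of the p97 segregase, and P4HB (5.57), a protein disulfide isomerase. Signalling was represented by RFNG (4.24), a glycosyltransferase that modifies Notch, and CSNK1D (1.67), casein kinase 1 delta. The other 10 genes included NARF (9.81), OGFOD3 (6.34), TSPAN10 (6.26), CYBC1 (5.86), PPP1R27 and MCRIP1 (4.98 each, shared), QTGAL (2.31) and SECTM1 (2.04), beside the predicted genes LOC124904075 and LOC124904094. Genes without a summit lay between them, among them EIF4A3, CHMP6, SIRT7 and RAC3. RPTOR (1.51), MAFG (3.74) and GPS1 (4.24) had a summit inside the gene but none within 1 kb of an end.

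Several genes in this stretch had more than 1 summit. At ACTG1 and FSCN2, 5 summits lay within 2940 bp, the largest run of summits in the whole list when neighbours within 10 kb are joined; the next run held 4. In order along the plus strand, their scores were 1.95 at 81511778 and 2.73 at 81512593, inside ACTG1, then 3.24 at 81513401 and 4.04 at 81513914, outside its outer end, and 10.0 at 81514718, which lay 344 bp before FSCN2. At SLC16A3, the summits at 82217921 (9.64), 82228953 (9.87) and 82231187 (8.29) all belonged to the gene, the first 13 bp before its outer 5′ end, the second 89 bp before an annotated internal start and the last inside. All 3 were among the 14 highest of the chromosome.

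In the first 10 Mb, 66 of 243 protein-coding genes had an end summit (27.2%, 21.7 to 33.2). Here too, roles were assigned to genes with an end summit only, so the counts by role carry no share. Genes of gene expression were 11: the Mediator subunit genes MED31 (7.48) and MED11 (4.44), the MAX-binding repressor gene MNT (6.75), the RNA-binding protein gene FXR2 (6.01), the nucleoporin gene NUP88 (5.75), SMG6 (4.53), an endonuclease of nonsense-mediated decay, EIF5A (4.46), RPL26 (3.58), EIF4A1 (2.91), the transcription factor gene CAMTA2 (2.78) and the mitochondrial rRNA methyltransferase gene MRM3 (2.52). Membrane traffic and phosphoinositide genes were 9: ACAP1 (10.7, the summit it shares with KCTD11), the exocytosis effector gene RPH3AL (5.98), PITPNA (5.11), PLD2 (4.19), the Rab7 effector gene RILP (4.09), the tethering complex gene VPS53 (4.04), INPP5K (3.76), RABEP1 (2.55) and WDR81 (1.73). The 7 genes of protein folding and modification were led by KCTD11 and followed by NXN (3.44), EMC6 (3.76), RNF167 (3.19), SENP3 (2.91), DERL2 (2.87) and TXNDC17 (2.83).

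Signalling genes in the same stretch were CAMKK1 (10.9), the purinergic receptor gene P2RX5 (5.91), the synaptic adhesion gene NLGN2 (4.68), the arrestin gene ARRB2 (4.66) and DLG4 (4.005), the gene of the synaptic scaffold PSD-95. Motor and actin genes were KIF1C (5.11), the non-muscle myosin gene MYH10 (4.98), MYO1C (4.91), whose nuclear myosin is a partner of WSTF in the B-WICH complex, and profilin, PFN1 (3.65). Metabolic genes were ALOXE3 (4.60), SRR (4.53), SPNS2 (3.76), ENO3 (3.65, shared with PFN1), SLC25A11 (3.19), SLC25A35 (2.16) and SLC43A2 (1.67). Mitochondrial genes were C1QBP (3.24) and the import subunit gene TIMM22 (2.16). Mitotic and centriolar genes were HASPIN (5.91, shared with P2RX5), MIS12 (2.87) and KIAA0753 (2.83). The other 18 had no role assigned here or are predicted genes, such as TLCD3A (6.90), BACC1 and RNASEK (5.66), ZNF594 (4.68), ZZEF1 (2.31) and LIAT1 (3.07). SCARF1, with a summit of 5.50 inside the gene, and ZNF232 had summits more than 1 kb from their ends and are not in the count.

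**Figure D4:**
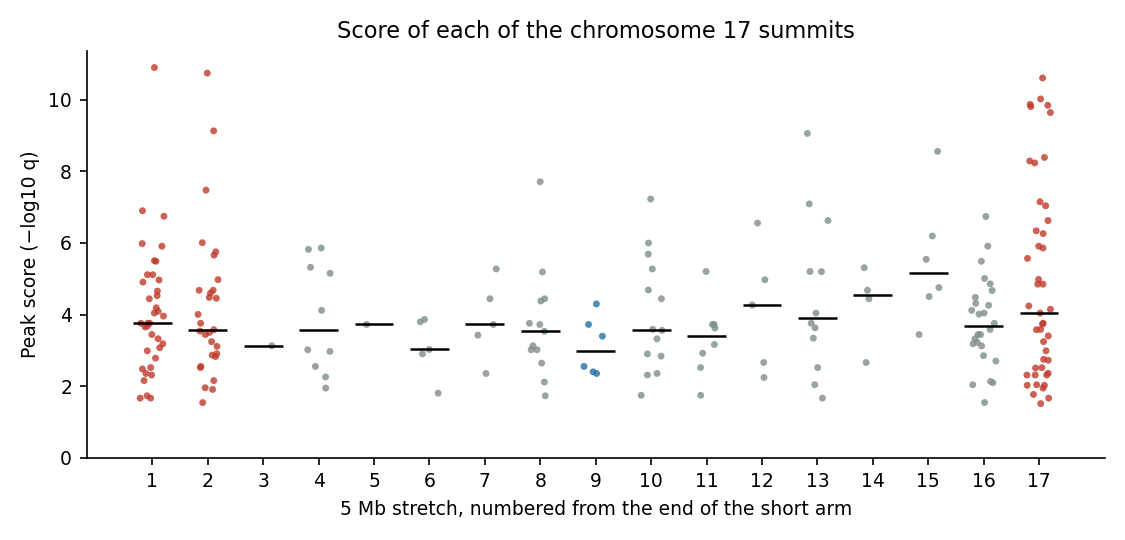
Peak score on the −log10 q scale (y axis) of each of the 227 chromosome 17 summits, by 5 Mb stretch numbered from the end of the short arm (x axis); black lines are medians and points are spread sideways for legibility. Scores of 8 or more occur 9 times in stretch 17, and the medians of the stretches with more than 10 summits lie between 3.53 and 4.04.

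The keratin stretch from 40 to 45 Mb had few summits although it had the most genes. The type I keratin and keratin-associated protein genes lie together at chr17:40654665-41624575, and 1 of these 62 genes (1.61%, 0.041 to 8.66) had a summit. This was KRT19, a keratin of simple epithelia including the intestine, with a score of 2.36 at 41528257, 51 bp inside its outer end. None of the 34 KRTAP genes had one. Off chromosome 17, 0 of 27 keratin genes and 0 of 60 KRTAP genes had one. The other summits of the stretch lay at HDAC5 (4.30), a class IIa histone deacetylase gene, ATXN7L3 (3.72), a SAGA deubiquitinase subunit gene, the chaperone gene DNAJC7 and its neighbour NKIRAS2 (3.397), MPP3 (2.55) and CAVIN1 (2.402). Leaving out the keratin families, 6 of 120 genes (interval 1.86% to 10.6%) had a summit, so the low share was not that of keratin genes alone. STAT3, STAT5A, STAT5B, TOP2A, CDC6, EZH1, KAT2A and DHX8 were among those without one.

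Other long stretches without summits were measured from summit to summit. The longest ran for 6.59 Mb, from UTP18 at 51260582 to MRPS23 at 57850039, and held 22 protein-coding genes. The next, 6.14 Mb from TMEM11 to a summit at 27353891, spans the centromere and held 5 genes. The gap of 5.71 Mb from a summit at 10292607 to TTC19 held 33 genes, with 6 myosin heavy chain genes among them. That summit lay 8258 bp past the 3′ end of MYH13. The gap of 4.13 Mb from PRKAR1A to a summit at 72640742, whose nearest protein-coding gene was SLC39A11, held 10 genes, with 5 ABCA transporter genes. Between 30 and 35 Mb a gap of 3.41 Mb, from a summit 55 bp from the tRNA gene TRT-CGT4-1 to CCT6B, held 24 genes. The median distance between neighbouring summits of the chromosome was 111 kb.

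The stretches from 10 to 80 Mb held 5 of the 20 highest summits of the chromosome. Between 60 and 65 Mb, 13 of 50 genes had a summit, with CYB561, STRADA (7.09), a gene of the LKB1 kinase complex, SMURF2 (6.63), an E3 ligase gene of TGF-beta signalling, and the RNA helicase gene DDX5 (5.20) in front. Elsewhere the highest scores of a stretch were at CDR2L (8.56, 70 to 75 Mb), PIP4K2B with CWC25 (7.71, 35 to 40 Mb), NFE2L1 (7.23, 45 to 50 Mb), ITGB4 (6.74, 75 to 80 Mb), SRSF1 (6.56, 55 to 60 Mb), NF1 (5.27, 30 to 35 Mb) and LUC7L3 (5.20, 50 to 55 Mb). PIP4K2B encodes a phosphoinositide kinase, NFE2L1 a factor that controls proteasome genes, ITGB4 an integrin of hemidesmosomes, SRSF1 a splicing factor and NF1 a RAS inhibitor. SEPTIN9 held 3 summits, 3.13 near its outer end and 4.67 and 3.23 inside.

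Counts over the gene lists are set beside the 17.5% of all protein-coding genes of the chromosome. RNA helicase genes had an end summit at 5 of 10: DDX5 (5.20), DHX40 (4.27), EIF4A1 (2.91), DDX42 (2.52) and DDX52 (2.12). The list of mitochondrial ribosome genes had 4 of 10, of which MRPL12 (3.76) and MRPS23 (2.66) encode ribosomal proteins while MRM1 (4.44) and MRM3 (2.52) encode rRNA methyltransferases. Splicing and RNA decay genes had 4 of 15, CWC25 (7.71), SRSF1 (6.56), LUC7L3 (5.20) and SMG6 (4.53), of which SMG6 acts in decay. The summit counted for CWC25 lay beyond its 3′ end and 278 bp before the start of its neighbour PIP4K2B. Transcription and chromatin genes had 9 of 39 (23.1%, 11.1 to 39.3), among them MED31, MED11, HDAC5, CBX8 (4.04), PHF12 (3.87), SMARCD2 (3.63), a BAF subunit gene, KAT7 (3.56), an acetyltransferase gene, and ZZEF1. KDM6B, KANSL1 and CBX2 had summits inside the gene only.

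DNA damage and cell cycle genes had 5 of 32 (15.6%, 5.28 to 32.8): PPM1D (4.04), the gene of a phosphatase that dampens the DNA damage response, RNF167 (3.19), CDC27 (2.90), LIG3 (2.36) and TOP3A (1.95). RNF167 is a ubiquitin ligase gene whose protein acts mainly at endosomes. Growth factor and kinase genes had 4 of 29 (13.8%, 3.89 to 31.7): MAPK7 (5.82), NF1 (5.27), PITPNA and CSNK1D. SLC transporter genes had 7 of 28 (interval 10.7% to 44.9%), led by SLC16A3, SLC38A10 and SLC38A12 (5.54), zinc finger ZNF genes 2 of 11, ZNF594 and ZNF830 (3.43), and ribosomal protein genes 1 of 6, RPL26. Off chromosome 17, 36 of 358 SLC genes and 74 of 506 ZNF genes had an end summit.

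No end summit was found at the 7 proteasome genes (interval to 41.0%), the 10 HOXB genes (to 30.8%), the 13 olfactory receptor genes (to 24.7%), the 18 CCL chemokine genes (to 18.5%), the 12 KCN and CACNG channel genes (to 26.5%), the 8 CD300 genes (to 36.9%) or the 5 ABCA genes (to 52.2%). Of 7 myosin heavy chain genes, 1 had a summit, MYH10, the non-muscle member. The chromosome 17 lists are short and, apart from the families, hold genes that differ in position, so their intervals are wide and most contain 17.5%.

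Some summits lay close to more than 1 protein-coding gene. Of the 227, 51 (22.5%, 17.2 to 28.5) were within 1 kb of an end of more than 1 protein-coding gene, against 14.0% (12.7 to 15.4) on the other chromosomes. Of the 50 with exactly 2 genes, strand was known for both genes at 39 summits. At 29 of them the genes pointed away from each other and at 10 they ran in the same direction. The pairs CENPX with LRRC45 and MCRIP1 with PPP1R27 were each counted at more than 1 summit. The orientation of gene pairs without a summit was not counted, so these numbers have no background beside them. Examples of head-to-head pairs were ARL16 and HGS (8.24), COPZ2 and NFE2L1 (7.23), NPLOC4 and TSPAN10 (6.26), NUP88 and RPAIN (5.75), NAT9 and SLC38A12 (5.54), ZSWIM7 and TTC19 (5.32), DDX5 and CEP95 (5.20), VCF1 and MTNAP1 (4.75), and DNAJC7 and NKIRAS2 (3.397). Such a summit marks both genes as having one, so the 204 genes with a summit are not independent. The chromosome is also more closely packed with genes than most, and the part of gene spacing in this share was not tested.

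Summits lay near one another more often than elsewhere. Another summit was within 10 kb of 45 of the 227 (19.8%, 14.8 to 25.6), in 20 runs, against 9.76% (8.61 to 10.996) on the other chromosomes. The runs outside the last stretch included SCARF1 to RILP (3 summits over 5772 bp), MNT (6.75 and 1.67), TMC8 (5.49 and 3.44), ARHGAP23 (4.38 and 3.53) and PIGW (3.76 and 1.73). Nearby summits come from neighbouring or split peaks of the same caller and are not independent either.

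Non-coding genes added few summits of their own. With an end summit were 47 of 718 lncRNA genes (6.55%, 4.85 to 8.61), against 3.51% in the whole list, 5 of 33 tRNA genes, 8 of 110 miRNA genes (7.27%, 3.19 to 13.8) and 3 of 533 pseudogenes. Over the whole table the shares were 4.97% for tRNA genes, 2.04% for miRNA genes and 0.118% for pseudogenes. For 22 summits the only gene end within 1 kb was non-coding, and 31 had both a protein-coding gene and a lncRNA.

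Among the miRNA genes, the summit at 2050356, with a score of 5.49, lay inside the MIR212 hairpin and 348 bp from MIR132. These miRNAs are made from 1 transcript and are known for their induction by CREB in neurons. Their mature forms are shown because the main arms share a seed, in capitals (bases 2 to 8).
hsa-miR-212-3p: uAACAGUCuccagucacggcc
hsa-miR-132-3p: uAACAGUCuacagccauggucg
hsa-miR-338-3p: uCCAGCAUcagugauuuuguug
hsa-miR-3065-5p: uCAACAAAaucacugaugcugga
The miR-212-3p sequence lies at chr17:2050290-2050310 and miR-132-3p at chr17:2049929-2049950, both on the minus strand, and the seed of both is AACAGUC. The last pair stands for the other miRNA locus with several hairpins beside a summit, MIR338 and MIR3065, which overlap on opposite strands inside AATK. There the summit at 81126201 scored 2.31 and lay 252 bp and 246 bp from the hairpins, and MIR657 was 828 bp away. MIR6777 (5.86), MIR4733 (5.27) and MIR4738 (4.31) were the other miRNA genes with a summit within 1 kb, the last pair beside NF1 and UNK.

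The promoters under the summits shared high GC content, which the selection by chromosome did not use. A promoter window here is 250 bases before to 50 after an annotated start. On chromosome 17, 108 of 1639 windows contained a summit, where overlapping windows can hold the same summit, so that these came from 81 summits. Over the whole table it was 3.86% of windows. The 108 windows had a median GC content of 71.0% (quartiles 67.0 to 75.7) and 36 CG dinucleotides, against 61.0% and 17 in the chromosome 17 windows without a summit, 70.7% and 33 in windows with a summit on other chromosomes, and 58.7% and 14 in all windows. Split at the terciles of all windows, 0 of 344 chromosome 17 windows in the lowest GC tercile had a summit (interval to 1.07%), 15 of 637 in the middle one (2.35%, 1.32 to 3.85) and 93 of 658 in the highest one (14.1%, 11.6 to 17.03). On other chromosomes the shares were 0.078%, 2.49% and 8.78% (8.26 to 9.32).

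GC content also moved with the stretches. Promoters of protein-coding genes had a median GC content of 71.7% from 80 Mb on, 65.0% in the first 10 Mb, 57.2% at 40 to 45 Mb and 43.2% in the keratin cluster, against 63.7% for the chromosome. Within the highest GC tercile, 25 of 80 windows from 80 Mb on had a summit (31.3%, 21.3 to 42.6) and 29 of 135 in the first 10 Mb (21.5%, 14.9 to 29.4). The counts were 2 of 57 at 40 to 45 Mb (3.51%, 0.43 to 12.1) and 37 of 386 in the rest (9.59%, 6.84 to 13.0). These stretches were picked with their summit counts known, and windows can share a summit, so the intervals decide nothing between them. Tercile limits are coarse, and openness of chromatin, expression and the number of copies of each stretch in these cells were not measured here. The part of GC content in the differences between stretches was not tested.

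**Figure D5:**
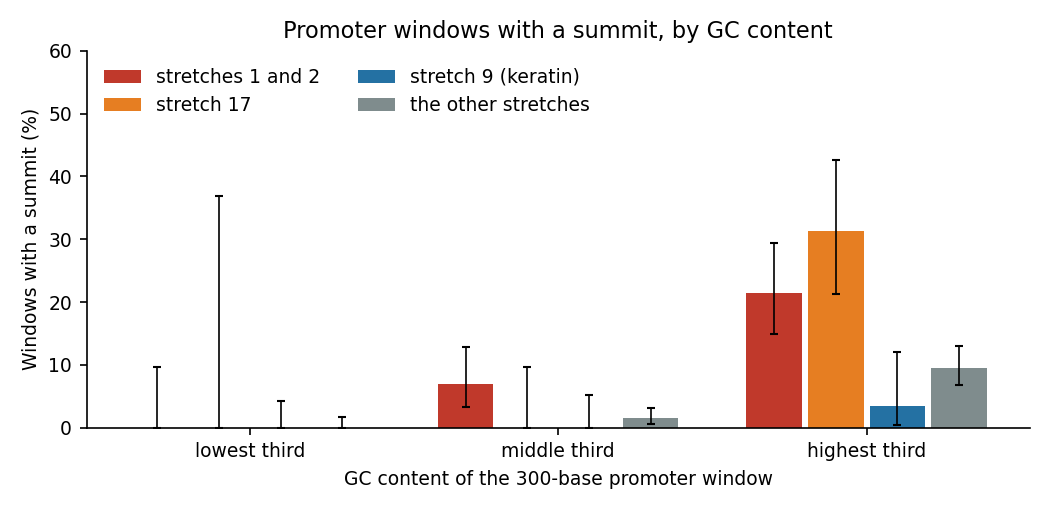
Percent of promoter windows with a summit inside (y axis, bars with exact 95% intervals) by tercile of GC content over all windows (x axis), for 0 to 10 Mb (stretches 1 and 2), 80 Mb to the telomere (stretch 17), 40 to 45 Mb (stretch 9) and the rest of chromosome 17. In the highest tercile stretch 17 reaches 31.3% and stretch 9 reaches 3.51%.

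A few short motifs were counted in the same windows on both strands, as letters and not as binding sites. The CCAAT box letters CCAAT were in 38.9% (29.7 to 48.7) of the 108 windows with a summit and in 34.6% of all windows, and TATAAA was in 3.70% (1.02 to 9.21) and 11.5%. Within the highest GC tercile of chromosome 17, TATAAA was in 3.23% (0.67 to 9.14) of windows with a summit and 1.24% (0.50 to 2.54) of those without. The letters GGGCGG were in 83.3% (74.9 to 89.8), against 50.2% of chromosome 17 windows without a summit and 45.03% of all windows. This gap closed among windows of the highest GC tercile, with 88.2% (79.8 to 93.9) of 93 windows with a summit and 88.0% of 565 without. The ETS core CCGGAAG behaved differently. It was in 34.3% (25.4 to 44.0) of windows with a summit, 10.5% (9.02 to 12.2) of those without and 10.3% of all windows. In the highest tercile the shares were 32.3% (22.9 to 42.7) with and 14.0% (11.2 to 17.1) without a summit, and on other chromosomes 20.98% (18.4 to 23.7) and 14.1%. Of the promoters printed above, those of ASPSCR1, ANAPC11 and CYB561 contain it.

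Rarer motifs were found in few windows. The palindromic NRF1 motif was in 8 of the 108 windows (7.41%, 3.25 to 14.1), 1.18% of those without a summit and 1.24% of all windows, and the ARHGDIA window was among the 8. The cAMP response element TGACGTCA was in 8 windows as well, with 1.502% of those without and 1.85% of all. The YY1 letters AAGATGGC were in 11 (10.2%, 5.20 to 17.5), against 3.79% and 2.89%. The E-box CACGTG was in 13 (12.0%, 6.57 to 19.7), against 9.47% and 7.27%. In windows with a summit on other chromosomes the shares were 4.11% (NRF1), 4.27% (cAMP element), 6.93% (YY1) and 13.7% (E-box). Within the highest GC tercile of chromosome 17, the NRF1 motif was in 8.60% with and 1.77% without a summit. The shares there were 6.45% and 1.42% for the cAMP element, 9.68% and 3.89% for YY1 and 12.9% and 10.8% for the E-box. Head-to-head genes have overlapping windows, which repeat the same letters, so these counts rest on fewer independent stretches than windows.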

How the data were processed

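Per the submitters' processing notes the authors used Trimmomatic 0.39, Bowtie2 2.4.4 and MACS2 2.2.7.1 with build hg38, and per the series' design text peaks were called against input DNA. No source used here says whether replicates were pooled. The deposited score per summit was read as −log10 of a q-value, because the lowest, 1.31, lies just above the 1.30 of a q of 0.05. It was used only within the list.

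Gene and promoter positions came from RefSeq tables of GRCh38.p14, whose coordinates are those of hg38. The gene table has no strand; strand came from the promoter table. Genes were placed in stretches by their midpoint. A gene was counted when a summit lay within 1 kb of either outer end. The named genes were drawn from those at the 20 highest summits and at the highest summit of each stretch. Others lay at the 5 summits farthest from a gene end, in shared pairs or, where a summit was present, in the gene lists. Genes with an end summit in the first 10 Mb or from 80 Mb on, or with 2 or more summits, were also drawn on. Not every gene that met these rules was named. Genes named as lacking an end summit, those at gaps and runs, the miRNA genes and other examples were chosen after their values were seen. The stretches, lists, roles and genes were chosen with earlier results of these data known. No test was made, since 1 list without replicates allows none. Assignment of summits to genes was tested on simulated data. Python 3.11.15, pandas 2.3.3 and SciPy 1.17.1 were used. The depth is unknown, so that absence of a summit says nothing on absence of WSTF. One gene of the lists is not reported here.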

Additional observations from a re-analysis of the deposited data

How the results depend on the processing

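Of 24 alternative values, 13 stayed within the 95% interval of the main value or, for a count, within 1.5 times of it. The share of summits within 1 kb of a gene end, 81.5%, was 70.04% with a window of 500 bp, 92.95% with 5 kb and 71.8% for protein-coding genes alone. The share of genes with an end summit, 17.5%, was 14.8% with 500 bp, 21.98% with 5 kb, 9.75% for summits at or above the median score and 20.1% by annotated starts, a setting chosen after seeing the data. The whole genome gave 10.1%, 14.5% and 6.14% in the first 3 of these settings. With summits at or above the median score, the share was 33.3% from 80 Mb on, 16.05% in the first 10 Mb and 1.10% at 40 to 45 Mb. These are lower by construction, since fewer summits were used, and the order of the stretches was kept. With 5 kb the first 10 Mb reached 36.6%. The short-arm share, the median score and the largest count per stretch (52 with stretches moved by 2.5 Mb) stayed close to the main value. No paired analysis was possible because the summits came from 1 list without replicates, and no replicate could be left out for the same reason.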
